A study of Mus musculus with 6 samples.

Results

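Genes of B cells, plasma cells and the transport of IgA across epithelium were followed in the whole epididymis of Ocln-KO and WT mice. They were picked by symbol, 10 of the 57127 gene rows of the count table, and comprised Jchain, Mzb1, Pigr, Ighm, Igha, Igkc, Cd79a, Cd79b, Ms4a1 and Pou2af1. All 10 had a row, 7 had a count in at least 1 of the 6 libraries, and 5 (Jchain, Mzb1, Pigr, Cd79b and Pou2af1) were abundant enough to be tested. The genes were chosen with earlier results of these data known.

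The series compared adult C57BL/6 males of genotype Ocln-/-, called Ocln-KO, with wild type males, called WT, in 3 libraries each and with no treatment. Ocln encodes occludin, a tight junction protein, and the paper's methods describe the null animals as offspring of heterozygous parents, so the gene was lost in every cell and not in the epididymis alone. The methods speak of RNA from pairs of mice and also of pooled RNA. Whether a library is 1 mouse is not stated outright, and p-values measure the spread between libraries.

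A plasma cell secretes IgA as a dimer held together by the joining chain. The polymeric immunoglobulin receptor binds that chain on the basal side of an epithelial cell, carries the dimer through the cell in endosomes, and is cut at the apical side to release secretory IgA into the lumen. Before they become plasma cells, B cells carry a membrane immunoglobulin whose signal passes through the Cd79a and Cd79b chains.

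The libraries held between 30646424 and 38870780 counts. CPM, the counts scaled to a common library size, were computed with TMM scaling, so that 1 count was worth 0.0267 to 0.0314 CPM and 3 counts, taken as the floor, 0.0802 to 0.0942 CPM. Ocln had 3213, 2689 and 3409 counts in the WT libraries and 486, 489 and 503 in the Ocln-KO libraries, in the direction of the labels. The RNA was labelled as whole epididymis although an extraction note named another organ, the prefrontal cortex. The epididymal genes Crisp1 and Adam7 had WT means of 14891 and 7457 CPM, and the cortical genes Slc17a7 and Neurod6 had 0.398 CPM and no count. On the first principal component, with 47.2% of the variance, Ocln-KO replicate 3 lay at 86.3, apart from the other Ocln-KO libraries at 17.7 and 29.1 and from WT at -52.8 to -37.0. Of the 19691 genes tested with edgeR's quasi-likelihood test, 1762 (8.95%) had an adjusted p under 0.05, with 770 (3.91%) higher and 992 (5.04%) lower in Ocln-KO.

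The upstream sequences of the 2 members that passed the test are shown first, since they hold the stretch just upstream of where transcription of the joining chain and of the receptor begins. RefSeq promoters were on hand for 4 of the 10 members (Jchain, Pigr, Cd79a and Pou2af1). The bases just after the start were found in a GENCODE transcript of the gene for Jchain, Pigr and Cd79a and not for Pou2af1. Each sequence below is the 250 bases before the start in GRCm38.p6, 5′ to 3′ on the gene's strand. Capitals mark an E-box, the palindrome CACGTG bound by basic helix-loop-helix factors. It was searched for after the sequences had been seen.
Jchain, chr5:88527898-88528147, minus strand: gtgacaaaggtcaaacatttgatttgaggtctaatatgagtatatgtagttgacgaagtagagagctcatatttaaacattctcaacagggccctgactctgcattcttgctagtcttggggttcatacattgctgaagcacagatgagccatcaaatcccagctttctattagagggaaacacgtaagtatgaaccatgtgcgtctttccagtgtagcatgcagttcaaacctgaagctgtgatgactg
Pigr, chr1:130826434-130826683, plus strand: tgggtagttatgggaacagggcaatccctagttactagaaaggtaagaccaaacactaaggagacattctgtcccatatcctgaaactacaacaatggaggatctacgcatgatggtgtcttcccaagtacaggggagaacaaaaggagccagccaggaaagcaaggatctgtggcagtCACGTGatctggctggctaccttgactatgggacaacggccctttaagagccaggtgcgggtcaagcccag

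The E-box stood 71 bases before the Pigr start (its first base at -71) and was in none of the other 3 windows. Of the 32851 mouse promoters of this length, 6.02% held it. The octamer ATGCAAAT, bound by the Oct factors that Pou2af1 coactivates, was searched on both strands and was in none of the 4 windows and in 1.60% of all promoters. GAGGAA, a longer form of the ETS core GGAA, was in the Cd79a window alone among the 4. It lay on the minus strand with its first base at -140, and 23.3% of all promoters held it. The core GGAA itself was not searched for, and it is present in the Jchain and Pigr sequences above. These letters describe the windows and no binding was measured.

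Transcripts of the joining chain and of the receptor that carries it were higher in Ocln-KO epididymis. Jchain rose 4.44-fold (95% interval 2.76 to 7.17) and Pigr 9.07-fold (3.34 to 24.6). They were 2 of the 5 members tested, beside 3.91% of all genes called higher, and both passed the fold threshold of 2, as did 1.49% of all genes tested in this direction. None of the 5 was called lower. Pigr entered the test only through the Ocln-KO libraries, where it was high, so its call cannot be weighed against these shares. With at least 10 counts required in every library, 3 members were tested and 1, Jchain, was called. In whole-organ RNA, more cells of a type and more RNA per cell cannot be told apart.

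Jchain encodes the joining chain of dimeric IgA and of polymeric IgM (chromosome 5, 88519809 to 88527897, minus strand, protein coding). It had 56, 49 and 37 counts in WT replicates 1 to 3 and 206, 133 and 233 in Ocln-KO replicates 1 to 3. On the CPM scale these were 1.50, 1.44 and 0.996 in WT and 6.42, 4.17 and 6.90 in Ocln-KO. All 3 Ocln-KO libraries lay above all WT libraries, and the lowest of them was replicate 2. The mean was 1.31 ± 0.273 CPM over the WT libraries and 5.83 ± 1.45 CPM over the Ocln-KO libraries (SD, n = 3), a log2 fold change of 2.15 (SE 0.30) with an adjusted p of 0.0137. Without Ocln-KO replicate 3, the library that stood apart, the log2 fold change came to 2.01 with an adjusted p of 0.0089. Leaving out WT replicate 1, 2 or 3 instead raised the adjusted p to 0.0778, 0.0504 and 0.0688, with log2 fold changes of 2.26, 2.22 and 1.99. Calls over all genes also fell with these libraries left out, from 1762 to 23, 230 and 56, so the loss was not particular to Jchain. No other annotated gene overlapped Jchain.

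Pigr encodes the polymeric immunoglobulin receptor (chromosome 1, 130826684 to 130852249, plus strand, protein coding). It had 10, 10 and 2 counts in the WT libraries and 71, 75 and 36 in the Ocln-KO libraries. In CPM it stood at 0.267, 0.293 and 0.0539 in WT and at 2.21, 2.35 and 1.07 in Ocln-KO. The groups did not overlap, the lowest library of each being replicate 3, and WT replicate 3 was under the floor. The means were 0.205 ± 0.131 and 1.88 ± 0.707 CPM (SD, n = 3), a log2 fold change of 3.18 (SE 0.62) with an adjusted p of 0.0281. Pigr passed the filter on low counts only through the Ocln-KO libraries. The adjusted p was 0.0122 without Ocln-KO replicate 3. It was 0.106, 0.0709 and 0.0882 without WT replicate 1, 2 or 3 and 0.0735 without Ocln-KO replicate 2, with log2 fold changes between 2.73 and 3.51 over these and all other settings tried. Over all genes, the calls without these libraries were 23, 230, 56 and 562, against 1762 with all libraries. No other annotated gene overlapped Pigr.

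**Figure D1:**
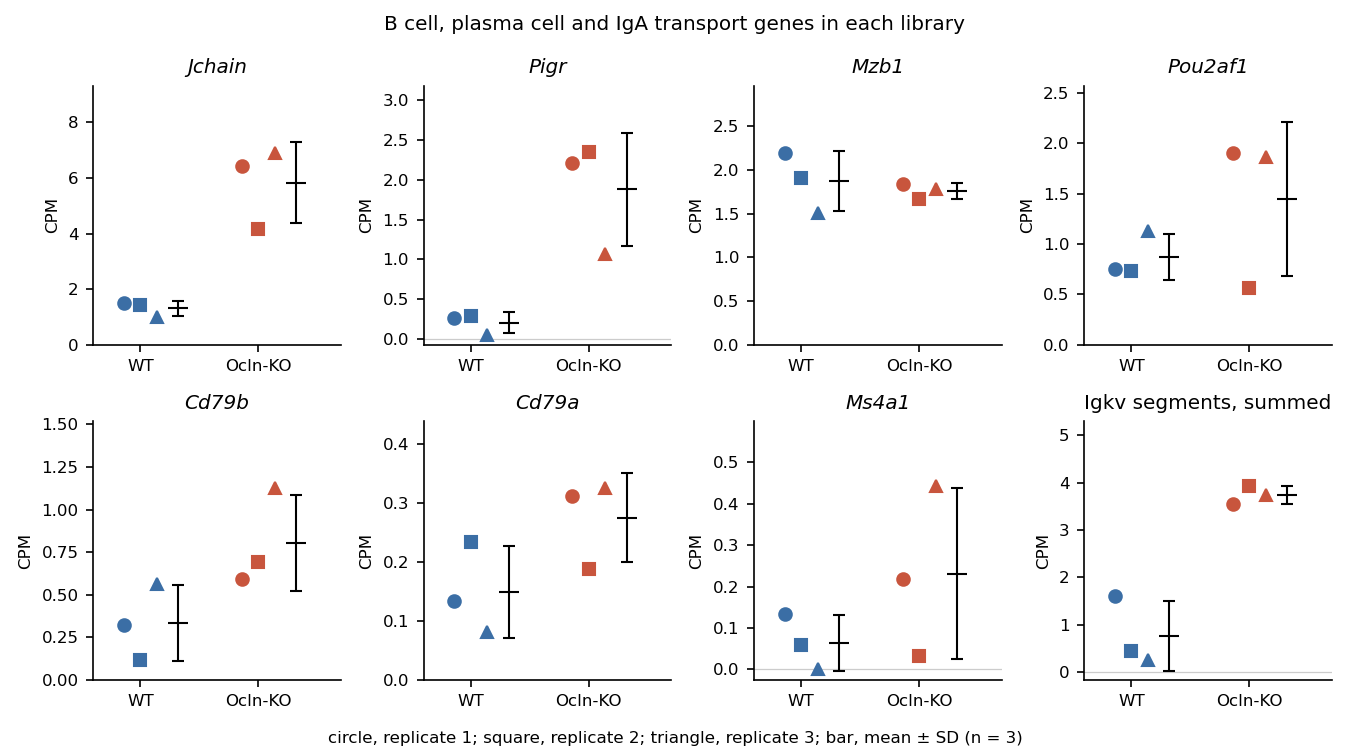
Level in CPM (y axis, linear) of 7 genes and of the summed kappa variable segments (Igkv) in each WT and Ocln-KO library, with the mean ± SD of 3 libraries beside the points. The Ocln-KO libraries of Jchain sit between 4.17 and 6.90 CPM and those of Pigr between 1.07 and 2.35 CPM, above all WT libraries, while the groups of Mzb1 and Pou2af1 overlap.

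**Figure D2:**
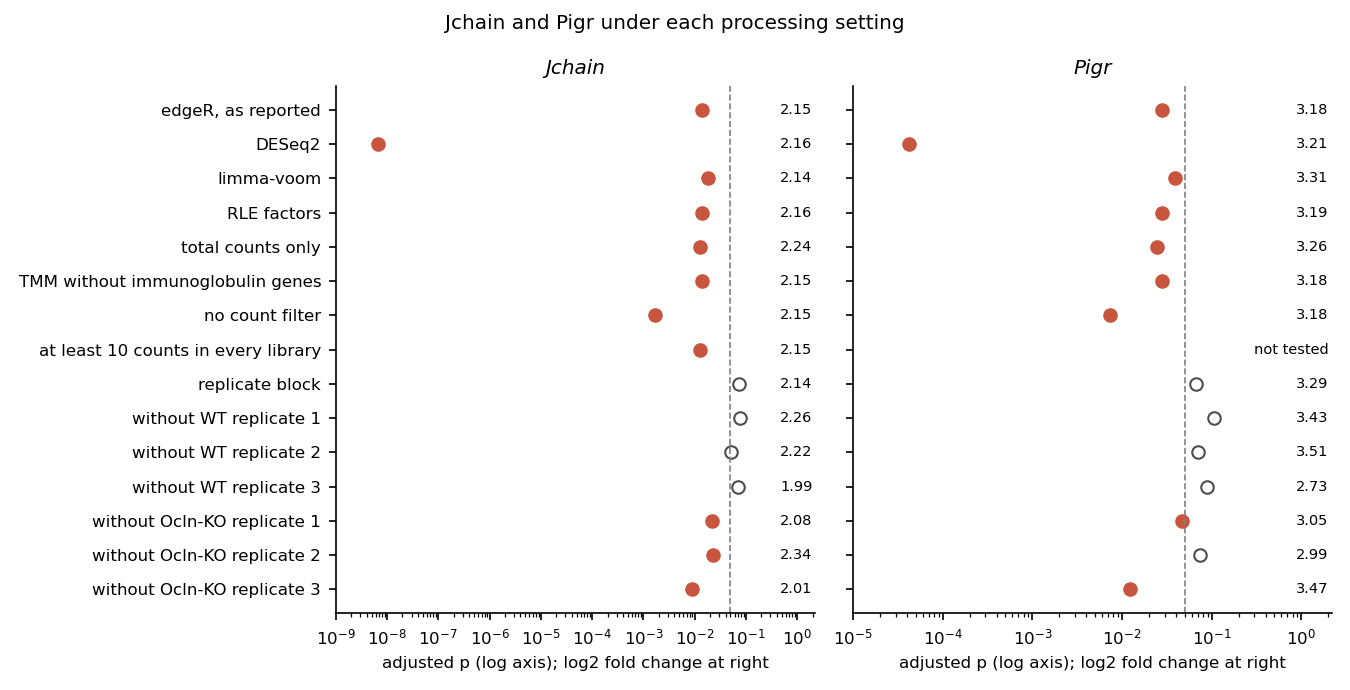
Adjusted p (x axis, log scale) for Jchain and Pigr under each processing setting, filled where under the dashed line at 0.05, with the log2 fold change of Ocln-KO against WT at the right. The log2 fold changes stay between 1.99 and 2.34 for Jchain and between 2.73 and 3.51 for Pigr, and the adjusted p is above 0.05 whenever a WT library is left out.

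Mzb1, a chaperone of the endoplasmic reticulum that helps B and plasma cells assemble immunoglobulin (chromosome 18, 35647265 to 35650266, minus strand), did not pass the test. Its counts were 82, 65 and 56 in WT and 59, 53 and 60 in Ocln-KO. The means were 1.87 ± 0.343 and 1.76 ± 0.0889 CPM (SD, n = 3), and the log2 fold change was -0.09 (95% interval -0.75 to 0.57, adjusted p 0.873). The interval ends below the interval of Jchain, which ran from 1.46 to 2.84. A difference between the fold changes of the genes was not tested. GENCODE gives Mzb1 an overlap with a same-strand neighbour, Spata24, that RefSeq does not, and how the authors would have counted shared reads is not stated.

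Pou2af1 encodes the coactivator of the Oct factors in B cells (chromosome 9, 51213690 to 51240079, plus strand). It had 28, 25 and 42 counts in WT and 61, 18 and 63 in Ocln-KO. Ocln-KO replicates 1 and 3 were higher than all WT libraries and replicate 2 was lower than all of them. The means of 0.871 ± 0.226 and 1.44 ± 0.761 CPM (SD, n = 3) gave a log2 fold change of 0.73 (95% interval -0.45 to 1.90, adjusted p 0.387).

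Of the chains that signal for the B cell receptor, Cd79b (chromosome 11, 106311341 to 106314562, minus strand) was tested and Cd79a (chromosome 7, 24897497 to 24901858, plus strand) was under the filter. Cd79b had 12, 4 and 21 counts in WT and 19, 22 and 38 in Ocln-KO. The lowest Ocln-KO library, at 0.592 CPM, was just above the highest WT library, at 0.565 CPM, a separation in this direction that 16.9% of all tested genes had. Its log2 fold change was 1.25 (95% interval -0.15 to 2.65, adjusted p 0.215), and 0.92 without Ocln-KO replicate 3. Cd79a had 5, 8 and 3 counts in WT and 10, 6 and 11 in Ocln-KO, so that the groups overlapped.

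Ms4a1 encodes CD20, a surface protein of B cells that plasma cells lose (chromosome 19, 11249679 to 11266149, minus strand). It had 5, 2 and 0 counts in WT and 7, 1 and 15 in Ocln-KO, with 3 of the 6 libraries at or under the floor. An antisense RNA, 4930526L06Rik, spans it, and the strand setting of the counting is not stated. Without the filter on low counts the adjusted p was 0.603 for Cd79a and 0.469 for Ms4a1, so that no difference of either gene was detectable at this depth.

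Divided by exon length from GENCODE vM21, which allows genes to be compared, Mzb1 led in WT with 1.54 CPM per kb, ahead of Jchain at 0.520, Pou2af1 at 0.342, Cd79b at 0.234, Cd79a at 0.103, Pigr at 0.0509 and Ms4a1 at 0.0104. In Ocln-KO the order of these mean levels was Jchain at 2.32 CPM per kb, Mzb1 at 1.45, Pou2af1 at 0.566, Cd79b at 0.561, Pigr at 0.466, Cd79a at 0.189 and Ms4a1 at 0.0374. Jchain moved from below Mzb1 to above it. These are orders of means, and differences between genes were not tested.

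The immunoglobulin chains themselves could not be read from their own rows. Ighm (chromosome 12, 113418826 to 113422730), Igha (chromosome 12, 113256204 to 113260236) and Igkc (chromosome 6, 70726435 to 70726754), the constant regions of the IgM and IgA heavy chains and of the kappa light chain, were listed at 0 in all 6 libraries. Of the 16 constant-region rows listed, T cell receptor rows included, 15 had no count, and Ighg2b had 2 counts in Ocln-KO replicate 2. None of the 82 J segments and none of the 14 D segments had a count, and 45 of 377 V segments did (41 of them of immunoglobulin), against 84.0% of 20593 protein-coding genes. The annotation also has rows for the whole loci, and RefSeq places Ighm and Igkc inside the spans of the Igh and Igk rows and Igha partly inside that of Igh. A 0 in these rows is therefore no measure of absence.

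The rows of the whole loci, chosen after their values were seen, held more counts. Igh, the heavy chain locus, had 237, 372 and 139 counts in WT and 222, 268 and 191 in Ocln-KO, a log2 fold change of 0.00 (SE 0.37, adjusted p 0.999). Igk, the kappa locus, had 1430, 1066 and 2239 counts in WT and 1017, 1302 and 1130 in Ocln-KO, with means of 43.3 ± 15.2 and 35.3 ± 4.87 CPM (SD, n = 3). Its log2 fold change was -0.29 (95% interval -0.83 to 0.24, adjusted p 0.449). Igl, the lambda locus, had 3, 2 and 5 counts in WT and 7, 4 and 25 in Ocln-KO and was under the filter. The groups overlapped in all 3 rows. Which part of these counts came from immunoglobulin transcripts was not tested.

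Variable segments encode most of the part of an antibody chain that meets the antigen. Different B cell clones can use the same segment, so a number of segments is not a number of clones. The summed counts of the 162 listed kappa segments (Igkv) were 60, 15 and 9 in WT and 114, 125 and 126 in Ocln-KO. In CPM the sums were 1.60, 0.440 and 0.242 in WT and 3.55, 3.92 and 3.73 in Ocln-KO, so the groups did not overlap. The means of 0.762 ± 0.736 and 3.74 ± 0.185 CPM (SD, n = 3) differed 4.90-fold, with an exact two-sided permutation p of 0.1, the smallest that 3 against 3 libraries can give. Without WT replicate 1, the highest WT library, the WT mean was 0.341 CPM and the ratio of means 11.0, and with each other library left out it lay between 3.66 and 5.02, values added after the data were seen. A segment count was seen for 14, 7 and 7 segments in the WT libraries and for 21, 17 and 19 in the Ocln-KO libraries. Of the segments, 6 had a count in all 3 Ocln-KO libraries, and 0 had one in all 3 WT libraries.

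The segments that led differed from library to library. Igkv8-34 had 30 of the 60 counts (50.0%) of WT replicate 1, 1 in Ocln-KO replicate 3 and 0 in the other libraries. Igkv19-93 had 55 of the 125 counts (44.0%) of Ocln-KO replicate 2, 14 counts in replicate 1 and 0 in the others. Igkv4-91 was shared more widely, with 22, 14 and 22 counts in Ocln-KO and 0, 5 and 1 in WT, and Igkv10-96 had 15, 8 and 13 in Ocln-KO and 1, 0 and 1 in WT. These 4 segments were named after their values were seen, and near-identical segments can share reads. Of the 183 heavy chain segments only Ighv5-17 and 1 other had a count, Ighv5-17 with 33 counts in Ocln-KO replicate 3 alone.

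**Figure D3:**
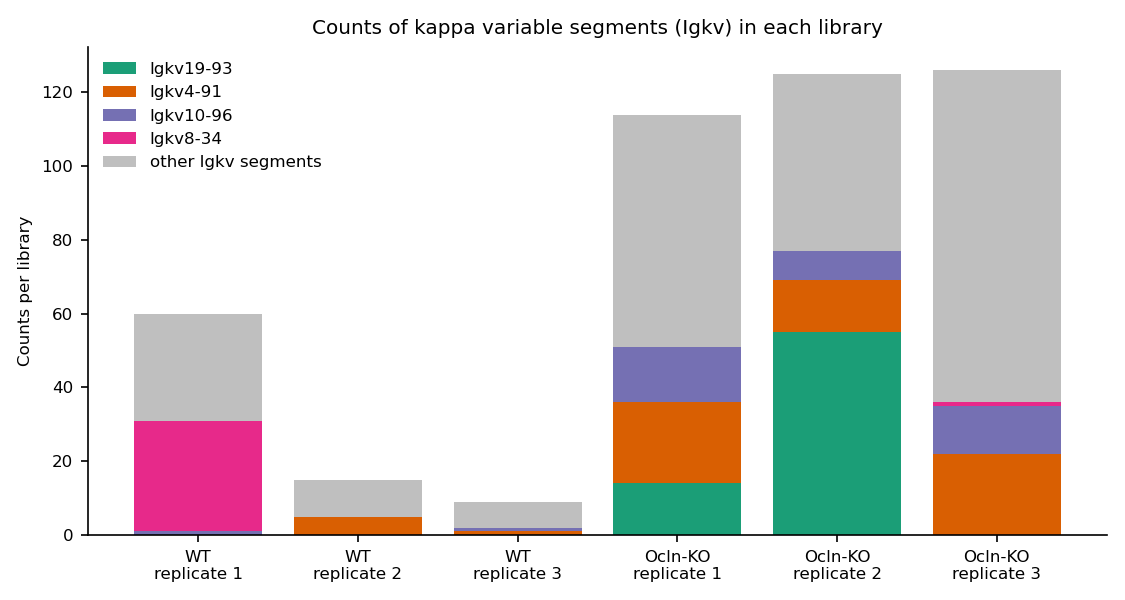
Counts (y axis, from 0) of the kappa variable segments in each of the 6 libraries, stacked by segment, with the 4 most counted segments in colour and the rest in grey. The WT bars reach 60, 15 and 9 counts and the Ocln-KO bars 114, 125 and 126, and different segments lead in different libraries.

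Which segments had counts followed their strand. Of the 75 Igkv segments that GENCODE places on the strand of Igkc, 0 had a count, and of the 85 on the opposite strand 39 did, with all 449 counts. The sums above therefore cover only segments on the strand opposite to Igkc, and the levels of the others are not known from these rows.

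Genes that accompany the B lineage were read from lists, whose counts are set beside 8.95% of all genes called and a median log2 fold change of 0.01 over all genes tested. Of 20 B cell genes, 14 were tested, 3 rose, 1 fell and 10 did not pass, with a median log2 fold change of 0.62. Spib, an ETS factor of B cells and plasmacytoid dendritic cells, went from 0.218 ± 0.118 CPM in WT to 1.05 ± 0.123 in Ocln-KO (log2 fold change 2.25, adjusted p 0.0372, and 0.0639 without Ocln-KO replicate 3). Its counts were 13, 4 and 7 in WT, where 1 library reached the count filter, so that it was tested only through the Ocln-KO libraries. Blnk, an adaptor of B cell receptor signalling, rose from 17.3 ± 0.785 to 34.6 ± 7.19 CPM (adjusted p 0.0195). Ebf1, a factor of early B cells that stromal and fat cells also express, rose from 5.42 ± 0.555 to 10.2 ± 1.69 CPM (adjusted p 0.0307). Fcrla, an Fc receptor-like protein of B cells, fell from 1.43 ± 0.157 to 0.345 ± 0.145 CPM (log2 fold change -2.04, adjusted p 0.0351). It was tested only through the WT libraries, since 2 of the Ocln-KO libraries reached the filter. Of these 4 calls 0 remained without WT replicate 1, 2 or 3, while the list had 2 calls when Ocln-KO replicate 1 was left out and 1 when replicate 2 was. Beside this, the 1762 calls over all genes became 23, 230 and 56 without WT replicate 1, 2 or 3. They became 1657 and 562 without Ocln-KO replicate 1 or 2.

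Of 13 plasma cell genes, 12 were tested, 4 rose, 0 fell and 8 did not pass, with a median log2 fold change of 0.52. Irf4, a factor required for plasma cells and used in activated T cells and macrophages as well, had 1.47, 1.52 and 0.969 CPM in WT and 4.46, 3.48 and 10.6 in Ocln-KO (log2 fold change 2.22, adjusted p 0.0314). Its highest library was Ocln-KO replicate 3, and without it the log2 fold change was 1.58. Tnfrsf13b, the receptor TACI for B cell survival ligands, rose from 0.743 ± 0.0671 to 2.07 ± 0.735 CPM (adjusted p 0.0473, and 0.0985 without Ocln-KO replicate 3). Slamf7, a surface protein of plasma cells and other leukocytes, rose from 2.90 ± 0.647 to 6.93 ± 1.75 CPM (adjusted p 0.0351). Sdc1, the plasma cell marker syndecan 1, which epithelia also make, rose from 45.8 ± 1.76 to 79.8 ± 19.2 CPM (adjusted p 0.0296). Xbp1, the factor of the secretory programme and an abundant transcript of secretory epithelium, had 218 ± 6.90 and 198 ± 26.8 CPM (adjusted p 0.45). Txndc5, also abundant, was lower in all Ocln-KO libraries than in any WT library, at 189 ± 6.68 and 152 ± 12.3 CPM. Its log2 fold change was -0.31 (adjusted p 0.0693, 0.0411 with DESeq2 and 0.0494 without Ocln-KO replicate 3). The list had 5 genes called higher and 1 lower with DESeq2, and 3 higher and 1 lower without Ocln-KO replicate 3. The list had 0 calls without WT replicate 1, 2 or 3 and 1 without Ocln-KO replicate 2, settings in which calls over all genes fell as well, as given for the B cell list.

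**Figure D4:**
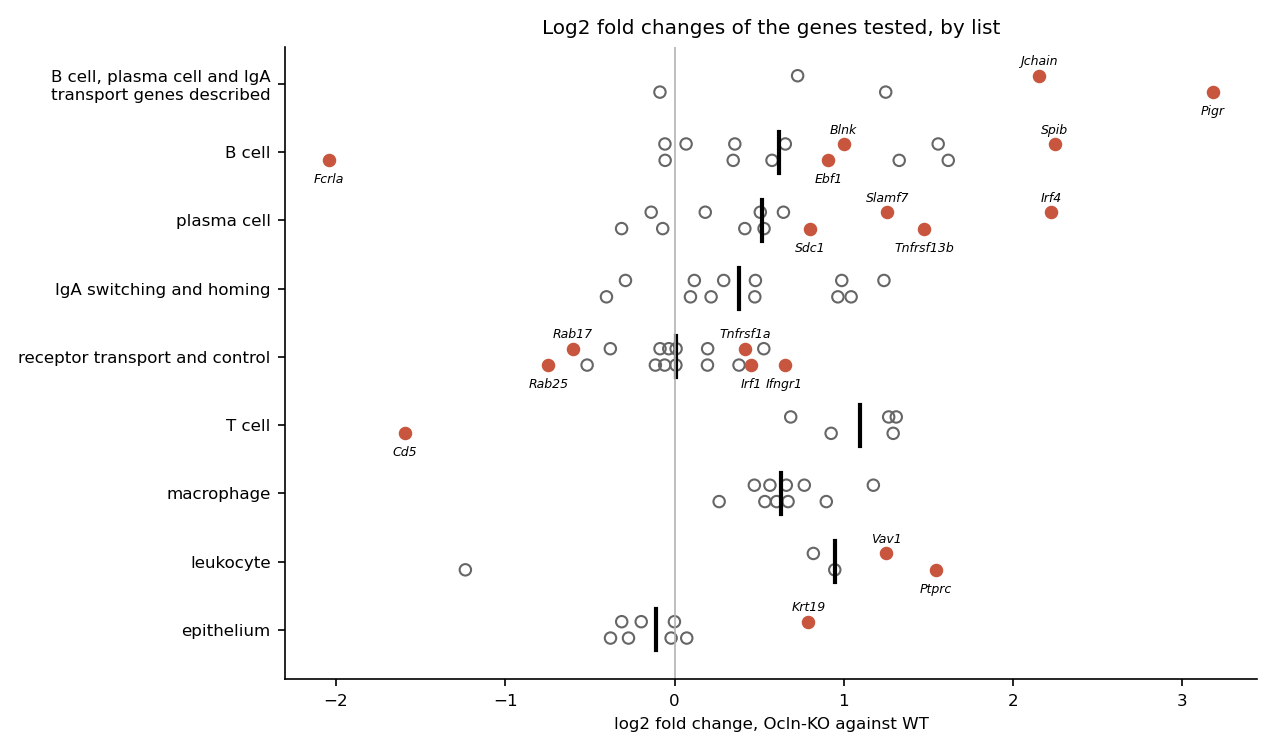
Log2 fold change of Ocln-KO against WT (x axis) for each gene tested, 1 row per list, with genes under an adjusted p of 0.05 filled and named and the list median as a vertical bar, drawn for all rows but the first. Jchain at 2.15 and Pigr at 3.18 lie to the right of the other lists' genes apart from Spib and Irf4, which pass Jchain. Every list median drawn is above 0 except that of epithelium (-0.11), with receptor transport and control at 0.01. Those of the macrophage (0.63) and leukocyte (0.95) lists are above those of the B cell (0.62) and plasma cell (0.52) lists.

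None of the genes that bring IgA plasma cells to a mucosa passed the test. Of 21 genes of IgA switching and homing, 12 were tested, 0 were called by edgeR, 3 had an unadjusted p under 0.05 (29.1% of all genes tested did), and DESeq2 called 3, with a median log2 fold change of 0.38. Cxcl12, a chemokine that retains plasma cells, had 67.5 ± 6.15 CPM in WT and 78.4 ± 6.06 in Ocln-KO (adjusted p 0.206). Itga4, the integrin chain that binds Vcam1 and Madcam1, had 10.6 ± 2.38 and 21.8 ± 8.79 CPM (adjusted p 0.0633), and Tgfb1, the cytokine of IgA switching, had 41.8 ± 5.64 and 34.2 ± 3.58 CPM (adjusted p 0.178). Leaving out Ocln-KO replicate 1 gave 2 calls, both higher.

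The list of receptor transport and control held the machinery that moves the receptor through endosomes and the cytokine receptors and factors that raise its transcription. Of its 18 genes, 17 were tested, 3 rose, 2 fell and 12 did not pass, with a median log2 fold change of 0.01. Irf1, an interferon-induced factor that binds the receptor gene, rose from 30.9 ± 1.62 to 42.3 ± 4.43 CPM (log2 fold change 0.45, adjusted p 0.0401). The interferon-gamma receptor chain Ifngr1 rose from 91.8 ± 2.41 to 144 ± 28.0 CPM (0.65, adjusted p 0.0354). The TNF receptor Tnfrsf1a rose from 44.6 ± 1.21 to 59.6 ± 6.32 CPM (0.42, adjusted p 0.0431, and 0.0702 without Ocln-KO replicate 3). Against these, 2 of the 5 Rab GTPases of the list fell, the epithelial GTPases of recycling and transcytosis Rab25, with a log2 fold change of -0.75 (35.4 ± 5.68 to 21.1 ± 1.30 CPM, adjusted p 0.0228) and Rab17, with -0.60 (27.4 ± 3.88 to 18.1 ± 2.41 CPM, adjusted p 0.046, and 0.0742 without Ocln-KO replicate 3). The other Rab genes did not pass, with log2 fold changes of 0.01 for Rab11a (adjusted p 0.956), 0.01 for Rab5a (0.963) and 0.53 for Rab3d (0.239). Myo5b, the motor of recycling endosomes and the most abundant of the list, had 335 ± 14.8 and 316 ± 33.5 CPM (adjusted p 0.626). The 5 calls became 0 without WT replicate 1 or 3, 1 when replicate 2 of either genotype was left out, and 3 when Ocln-KO replicate 1 or 3 was. Calls over all genes were also fewest without a WT library, as given for the B cell list.

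Markers of other cells moved beside these genes, and their part in the results was not tested. Ptprc, the pan-leukocyte phosphatase CD45, rose from 13.0 ± 2.15 to 38.1 ± 8.60 CPM (log2 fold change 1.54, adjusted p 0.011, and 0.061 and 0.0643 without WT replicate 1 or 3), and 2 of 5 leukocyte genes tested rose. The other was Vav1, whose adjusted p was above 0.05 with any 1 library left out, at most 0.12. The leukocyte list had a median log2 fold change of 0.95. Its sum was 2361 to 2739 CPM in WT and 437 to 1700 in Ocln-KO, and most of that sum was Cd52, which epididymal epithelium also makes. Of 10 macrophage genes 0 were called by edgeR and 7 had an unadjusted p under 0.05, beside 29.1% of all genes tested. All 10 had a positive log2 fold change, with a list median of 0.63. Their sum ran from 212 to 253 CPM in WT and from 258 to 459 in Ocln-KO. Of 6 T cell genes tested 5 had a positive log2 fold change, with a list median of 1.10. An unadjusted p under 0.05 was seen for 4 of the 6, beside the same 29.1% of all genes tested. The chains Cd3d, Cd3e and Cd3g of the T cell receptor complex were higher in all 3 Ocln-KO libraries than in any WT library. Of all genes tested, 16.9% were separated in this direction. The adjusted p of the 3 chains were 0.152, 0.123 and 0.183. Only Cd5 was called, and it fell, with an adjusted p of up to 0.15 over the libraries left out. Cd2 and Trac were at 0, and the T cell sum ran from 6.01 to 7.86 CPM in WT and from 6.70 to 9.10 in Ocln-KO. Without Cd5, a sum added after the data were seen, it ran from 2.57 to 3.58 CPM in WT and from 5.14 to 8.38 in Ocln-KO. Of 4 plasmacytoid dendritic cell genes tested, 0 were called by edgeR and 2 had an unadjusted p under 0.05, with a list median of 1.55. The sum of the list was 11.7 to 14.4 CPM in WT and 14.5 to 71.1 in Ocln-KO. The top of that range was Ocln-KO replicate 2, with 64.4 CPM of Bst2.

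Ccl21a and Glycam1, defining genes of lymph node stroma and vessels, were at 0 in all 6 libraries, and the sum of the lymph node list was 0.592 to 1.67 CPM in WT and 1.18 to 1.57 in Ocln-KO. The epithelial sum was 1874 to 2144 CPM in WT and 1573 to 2019 in Ocln-KO, and of its 8 genes 1, Krt19, rose (adjusted p 0.0336, and 0.0749 to 0.129 without a WT library). The blood sum was lower, 21.9 to 49.6 CPM in WT against 6.04 to 13.2 in Ocln-KO, with 1 of 5 genes, Alas2, called lower (adjusted p 0.035, and 0.0864 to 0.127 without a WT library), while 0 of 5 sperm genes were called by edgeR and 0 had an unadjusted p under 0.05, with sums of 178 to 227 and 56.8 to 239 CPM.

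Over the 6 libraries, the genes of at least 1 CPM whose log2 CPM ran most like that of Jchain were Hoxc5, Mmgt2, Setd2, Mbp and Naalad2, with Pearson's r from 0.9980 to 0.9995. For Pigr they were Ppig, Gm34820, Fam227a, Smc4 and Swt1, with r from 0.9938 to 0.9978. The top 5 were taken from 16357 genes, and all points share the same libraries and their split by genotype. Jchain and Pigr had an r of 0.909 with each other, and neither was in the other's top 5. The changes of the like genes were smaller, from 11.9 to 16.7 CPM for Hoxc5 and from 60.5 to 88.6 CPM for Ppig.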

How the data were processed

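RNA of whole epididymis, 3 WT and 3 Ocln-KO libraries, was measured by rRNA-depleted, directional, paired-end sequencing. The authors deposited raw counts per gene, without normalization. They aligned trimmed reads to GRCm38 with HISAT2 (2.0.4 in the submitters' processing notes) and counted with HTSeq, whose mode and strand setting are not given in the sources used here. Columns were matched to samples by name, and 0 were unmatched.

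Counts were tested in R 4.3.3 with edgeR 4.0.16 (filterByExpr with a minimum count of 10, TMM factors, glmQLFit and glmQLFTest), unpaired, with Benjamini-Hochberg adjustment over the 19691 genes kept of 32046 with a count. Called means an adjusted p under 0.05. A fold change over 2 or under 0.5, the thresholds of the study's methods, was added where stated. SEs are the log2 fold change over the square root of F, and intervals are at 95%. Total counts per library ran from 30646424 to 38870780. The floor of 3 counts covers counting error only. Same-numbered libraries of the genotypes deviated with correlations of -0.0525, -0.0315 and -0.0026 and were not treated as pairs.

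On simulated counts with 200 genes changed 4-fold among 19315, edgeR recovered 77.5% with 6 false calls, limma-voom 76.5% with 5 and DESeq2 83% with 56. Alternatives were DESeq2 1.42.0, limma-voom (limma 3.58.1), RLE factors, total counts only, TMM without immunoglobulin rows, a replicate block, no count filter, a minimum of 10 counts per library, the fold threshold and each library left out. Tables were made in Python 3.11.15 with pandas 2.3.3.

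The genes described, the lists and the tests were chosen with earlier results of these data known. All 10 genes are named. Of the lists (B cell, plasma cell, immunoglobulin constant, IgA switching and homing, receptor transport and control, and markers of other cells), genes called and the 3 most abundant may be given with values, and for likeness the 5 genes with the highest r. Of the immunoglobulin constant list, 10 genes were listed and 0 tested.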

Additional observations from a re-analysis of the deposited data

How the results depend on the processing

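The 1762 genes called became 3312 with DESeq2, 41 with the replicate block, 628 with the fold threshold, and 23 to 1692 with 1 library left out, the lowest without WT replicate 1. With total counts only, 1175 were higher and 674 lower, against 770 and 992. Of the 2 members called, 1 (Jchain) was called with at least 10 counts in every library, where Pigr was not tested, 0 with the replicate block (adjusted p 0.0738 for Jchain and 0.0672 for Pigr), and 0 to 2 with 1 library left out. The B cell list (4) had 0 with the replicate block, 2 with the fold threshold and 0 to 3 with 1 library left out. The plasma cell list (4) had 2 with limma-voom, 0 with the replicate block and 0 to 4 with 1 left out. The IgA switching and homing list (0) had 3 with DESeq2, 1 with total counts only, 2 without a count filter and 0 to 2 with 1 left out. The receptor transport and control list (5) had 0 with the replicate block, 0 with the fold threshold and 0 to 3 with 1 left out. Mzb1 turned from a log2 fold change of -0.09 to 0.00011 with total counts only and to 0.044 without WT replicate 1, within -0.22 to 0.044 over all libraries left out. Jchain and Pigr stayed positive in all 14 and 13 alternatives that could be run, and 10 and 8 of these had an adjusted p under 0.05. Immunoglobulin V segments with a count went from 41 to 22 with more than 3 counts in a library. Why these counts changed between settings was not tested.

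Same-numbered libraries did not deviate together. The paper's methods speak of pairs of mice, and whether the replicate numbers mark such pairs is not stated. Under the block the log2 fold changes were 2.14 for Jchain and 3.29 for Pigr, and why their calls were lost was not tested. The shares of Igha and of Igkc among constant-region counts were not run, since those rows were at 0. Depth limits Cd79a, Ms4a1 and the WT level of Pigr, which rest on 0 to 15 counts in a library.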

Other observations

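Several low B cell rows, picked out after their values were seen and too low to be tested, had their highest count in Ocln-KO replicate 3, the library that stood apart from the others. Tnfrsf13c, the receptor for the survival factor BAFF, had 16 counts there and 2 to 5 in each of the other libraries. Ms4a1 had 15 there and 0 to 7 elsewhere, the Igl row 25 there and 2 to 7 elsewhere, and Ighv5-17 33 there and 0 elsewhere. Pigr went the other way among the Ocln-KO libraries, with 36 counts in replicate 3 against 71 and 75.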
